A study of Mus musculus with 9 samples.

Results

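The genes described here are 43 genes that a dividing cell uses to copy its DNA and to segregate the copies. They are 24 replication genes, expressed towards the G1/S transition, and 19 mitotic genes, expressed towards G2/M, and they were picked by name from a table of 55401 entries. All 43 were found, and all 43 reached the mean of 1 FPKM (fragments scaled by gene length and by the fragments of the library) over the libraries that was required for testing, as did 14506 entries in all.

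RNA from mouse colonic tissue was sequenced in 9 libraries, 3 per group. The berberine group received berberine, a plant alkaloid. The high-fat diet group received a high-fat diet with AOM/DSS, and the chow group a chow diet with AOM/DSS. AOM/DSS is commonly short for azoxymethane with dextran sulfate sodium, a regimen that gives mice colon tumours on a background of colitis. All libraries are labelled wild type (WT) for genotype. Neither the diet of the berberine group, nor whether it received AOM/DSS, nor strain, age or dose is given in the sources used here. It is also not stated whether the libraries of a group came from separate animals, so p-values measure the spread between these libraries. The question of the study is how berberine, seen through gene expression, acts on tumours.

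Replication starts when the MCM helicase, loaded in G1 by ORC, CDC6 and CDT1, is activated by CDC45 and the GINS complex, after which PCNA, its loader RFC and DNA polymerases copy the strands. The genes for these proteins are classic targets of E2F transcription factors, which the retinoblastoma family holds in check until cyclin D and cyclin E kinases inactivate it. Mitotic genes come on later, under the MuvB complex with B-MYB and FOXM1, which acts through CHR elements next to CCAAT boxes bound by NF-Y. In normal colon, dividing cells lie in the lower part of the crypt, while differentiated colonocytes at the surface have left the cycle.

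The upstream sequences are shown because these elements set the phase in which a gene is expressed. Of the 43 genes, 36 matched a start site in RefSeq (GRCm38.p6), 21 replication and 15 mitotic ones, and the 250 bases before the start were searched on both strands. The RefSeq start nearest the start of the deposited gene was used. It lay 539 bases inside the deposited gene for Mcm7, 466 for E2f1 and 350 for Cdc6, so their windows lie within the gene. For the other genes it was at most 224 bases away. The E2F-type letters searched were TTGGCGC with the variants TTCCCGC or TTCGCGC or TTGCCGC, the CCAAT box was CCAAT, and the CHR-type letters were TTTGAA and TTTAAA. The last of these reads the same on both strands, and TTGGCGC can share TTGG with a CCAAT box on the opposite strand. In the sequences below, which run 5′ to 3′ on the strand of the gene and end at the base before the start, capitals mark these letters on either strand. The replication genes shown are Mcm7 (chr5:138171884-138172133, minus strand), Rfc3 (chr5:151651209-151651458, minus strand) and Pcna (chr2:132253181-132253430, minus strand), and the mitotic genes are Cdk1 (chr10:69352913-69353162, minus strand), Ube2c (chr2:164769679-164769928, plus strand) and Cdc20 (chr4:118437344-118437593, minus strand). They are the 3 matched genes of each list with the smallest p in any comparison.
Mcm7: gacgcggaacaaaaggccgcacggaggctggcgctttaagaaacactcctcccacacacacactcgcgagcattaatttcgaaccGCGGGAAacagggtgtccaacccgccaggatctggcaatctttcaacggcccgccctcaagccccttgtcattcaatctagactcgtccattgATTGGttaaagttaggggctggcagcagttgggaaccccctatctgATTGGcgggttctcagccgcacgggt
Rfc3: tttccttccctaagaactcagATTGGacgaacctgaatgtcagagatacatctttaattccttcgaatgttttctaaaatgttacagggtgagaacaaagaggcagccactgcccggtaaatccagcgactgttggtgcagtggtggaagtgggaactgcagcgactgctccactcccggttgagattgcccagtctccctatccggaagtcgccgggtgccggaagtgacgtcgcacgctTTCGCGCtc
Pcna: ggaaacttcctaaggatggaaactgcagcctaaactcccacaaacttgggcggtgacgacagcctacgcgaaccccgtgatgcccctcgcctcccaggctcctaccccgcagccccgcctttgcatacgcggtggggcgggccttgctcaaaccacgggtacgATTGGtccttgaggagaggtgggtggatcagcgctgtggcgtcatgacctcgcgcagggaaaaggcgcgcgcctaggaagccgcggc
Cdk1: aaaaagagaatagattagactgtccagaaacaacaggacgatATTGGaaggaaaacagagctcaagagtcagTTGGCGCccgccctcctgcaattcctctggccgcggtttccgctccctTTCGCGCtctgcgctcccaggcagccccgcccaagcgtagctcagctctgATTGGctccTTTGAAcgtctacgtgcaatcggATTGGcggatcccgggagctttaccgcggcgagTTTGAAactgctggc
Ube2c: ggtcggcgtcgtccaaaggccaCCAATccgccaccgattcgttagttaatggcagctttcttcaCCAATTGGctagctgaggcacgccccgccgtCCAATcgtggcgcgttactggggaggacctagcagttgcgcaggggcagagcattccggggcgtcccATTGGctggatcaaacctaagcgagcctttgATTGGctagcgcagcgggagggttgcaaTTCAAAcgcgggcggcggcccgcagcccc
Cdc20: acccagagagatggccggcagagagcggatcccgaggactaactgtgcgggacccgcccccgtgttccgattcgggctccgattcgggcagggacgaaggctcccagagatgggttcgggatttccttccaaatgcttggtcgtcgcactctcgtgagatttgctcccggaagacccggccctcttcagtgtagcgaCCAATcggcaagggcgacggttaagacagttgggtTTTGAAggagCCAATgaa

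E2F-type letters occurred in 9 of the 21 replication windows (42.9%) and 3 of the 15 mitotic windows (20.0%), compared with 14.0% of 10035 windows of tested genes and 7.89% of all 32851 windows in the table. A CCAAT box occurred in 13 replication windows (61.9%) and 14 mitotic windows (93.3%), compared with 36.0% of the windows of tested genes. CHR-type letters occurred in 6 replication windows (28.6%) and 11 mitotic windows (73.3%), compared with 17.4%. Both of these elements together occurred in 3 replication windows and in 10 mitotic windows (66.7%), compared with 6.48% of the windows of tested genes. In Cdk1, the kinase that drives entry into mitosis, CHR-type letters lay 71 to 66 and 15 to 10 bases before the start, with CCAAT boxes at 208 to 204, 80 to 76 and 48 to 44, and E2F-type letters at 178 to 172 and 130 to 124. In Ube2c, which encodes the ubiquitin-conjugating enzyme of the anaphase-promoting complex, 6 CCAAT boxes were found, of which a pair on opposite strands shared 2 letters at 186 to 179. A match is a run of letters and not a shown binding site.

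Library totals ran from 51961764 to 69007117 estimated counts. Levels of 1 gene across libraries are given as CPM, counts scaled to a common library size by TMM. Epithelial markers were present in every library, with 12 genes of general epithelium summing to between 14516 and 17440 CPM in berberine, 10598 and 14058 CPM in high-fat diet and 15745 and 17329 CPM in chow libraries. The 10 markers of absorptive colonocytes, which no longer divide, summed to between 4686 and 7399 CPM in berberine libraries, 619 and 1046 CPM in high-fat diet libraries and 5870 and 11365 CPM in chow libraries, and all 10 fell in the high-fat diet group against chow. Some libraries stood apart. Chow replicate 3 had 1855 CPM of 10 striated muscle markers (at most 56.7 CPM elsewhere), and chow replicate 1 had 342 CPM of 10 squamous epithelium markers, against 5.28 and 15.2 CPM in the other chow libraries. Berberine replicate 1 had the highest sum of 10 B cell markers (1042 CPM, against 666 and 555 CPM in the other berberine libraries, 176 to 336 CPM in high-fat diet libraries and 397 to 581 CPM in chow libraries). Other cell types also moved with the groups: T and NK cell markers summed to 109 to 143 CPM in berberine, 37.6 to 47.3 CPM in high-fat diet and 64.1 to 131 CPM in chow libraries, and smooth muscle markers to 4959 to 5898 CPM in berberine, 1667 to 7866 CPM in high-fat diet and 10022 to 14089 CPM in chow libraries. Adipocyte markers summed to 302 to 1285 CPM in berberine, 38.2 to 68.8 CPM in high-fat diet and 322 to 467 CPM in chow libraries, and squamous markers to 7.21 to 22.4 CPM in berberine and 74.6 to 170.2 CPM in high-fat diet libraries. Of the markers, Klrb1c and Myh4 were at 0 in all high-fat diet libraries and Sprr3 in all berberine and all high-fat diet libraries. In whole tissue, more dividing cells and more RNA of these genes per cell cannot be told apart, and the part of cell composition in the results that follow was not tested.

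Both lists had their highest mean score in the high-fat diet group, and the means of the berberine and chow groups lay closer to each other than to it. A list score, the mean of log2(CPM + 1) over the genes less the chow mean, was 0.35, -0.05 and -0.29 in the berberine libraries, 0.58, 0.82 and 0.56 in the high-fat diet libraries and 0.26, -0.06 and -0.20 in the chow libraries for the replication genes. All high-fat diet libraries thus lay above all others. For the mitotic genes the score was -0.18, 0.15 and -0.33 in the berberine libraries, 0.48, 0.46 and 0.57 in the high-fat diet libraries and 0.54, 0.05 and -0.60 in the chow libraries. Here chow replicate 1 lay as high as the high-fat diet libraries, and chow replicate 3 was the lowest of all. The mitotic score had an SD of 0.25 in the berberine group, 0.058 in the high-fat diet group and 0.57 in the chow group (n = 3 each).

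**Figure D1:**
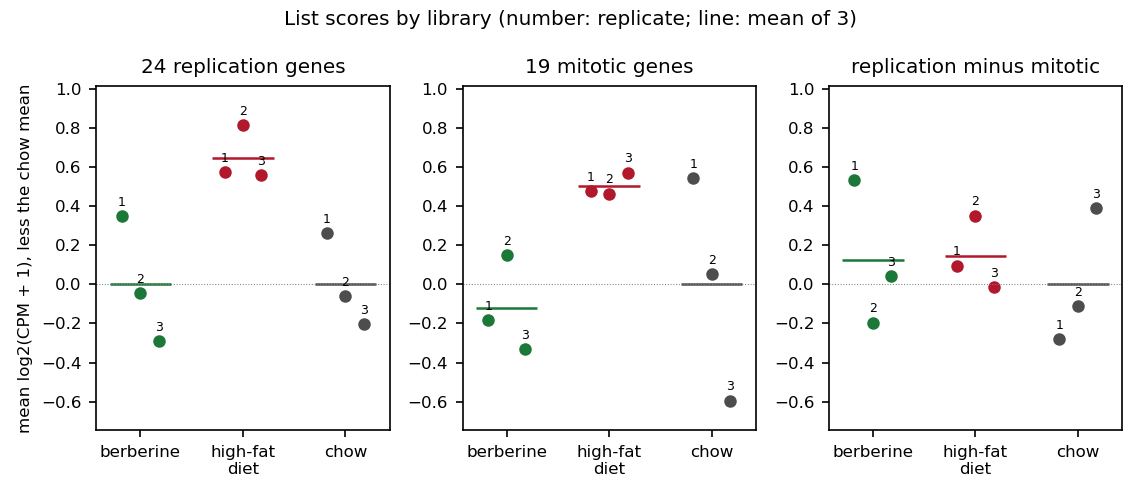
Scores of the 24 replication genes, of the 19 mitotic genes and their difference (y axes: mean log2(CPM + 1) less the chow mean) by group; points are libraries with their replicate number and lines are means of 3 libraries. Replication scores of the high-fat diet libraries (0.56 to 0.82) lie above all others, while mitotic scores of chow span -0.60 to 0.54.

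In the high-fat diet group against chow, 10 of the 24 replication genes rose and none fell, where 15.1% of the 14506 tested genes rose and 16.6% fell (31.7% in all). The risen genes encode helicase subunits (Mcm2, Mcm4, Mcm5, Mcm7), the GINS subunit Gins1, the sliding clamp Pcna, the clamp loader subunit Rfc3, the ribonucleotide reductase subunit Rrm1, and the G1/S regulators Ccne1 and E2f1. The fold change was above 0 for 23 of 24 (50.1% of tested genes) and below 0 for 1 (49.9%), with a median log2 fold change of 0.77 beside 0.00 over all tested genes, and for 14 of them every high-fat diet library exceeded every chow library, which held for 23.2% of tested genes. Of the 19 mitotic genes 1 rose, Cdk1, and none fell. Their median log2 fold change was 0.44, with 17 of 19 above 0 and 6 of 19 with groups that did not overlap. At an unadjusted p under 0.05 there were 12 of 24 replication and 5 of 19 mitotic genes, beside 43.1% of tested genes. All these calls are from edgeR's quasi-likelihood test with Benjamini-Hochberg adjustment over all tested genes at 0.05. With library totals in place of TMM, the median over all tested genes moved to 0.13 and the split of all calls to 2805 higher and 1876 lower, against 2194 higher and 2403 lower with TMM. The medians of the lists then became 0.90 and 0.56.

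In the berberine group against the high-fat diet group, 7 of 24 replication genes fell and none rose, where 14.9% of tested genes fell and 15.7% rose (30.6% in all). They were Mcm7, Mcm10, Gins1, Pcna, Rfc3, Rrm1 and Ccne1. At an unadjusted p under 0.05 there were 12 of 24, beside 42.3% of tested genes. All 24 had a fold change below 0 (50.4% of tested genes) and none above 0 (49.5%), with a median log2 fold change of -0.59 beside -0.01 over all tested genes, and 11 did not overlap, which held for 25.6% of tested genes in that direction. Among the mitotic genes Cdk1 fell (5.26% of the list) and 18 did not pass, and 8 of 19 had an unadjusted p under 0.05, beside the same 42.3%. All 19 were below 0, the median was -0.64 and 17 of 19 had every berberine library below every high-fat diet library. The high-fat diet libraries enter both comparisons, so their results are not independent. With library totals in place of TMM the median over all tested genes was -0.12 and the split 1845 higher and 2682 lower, against 2275 and 2158 with TMM.

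**Figure D2:**
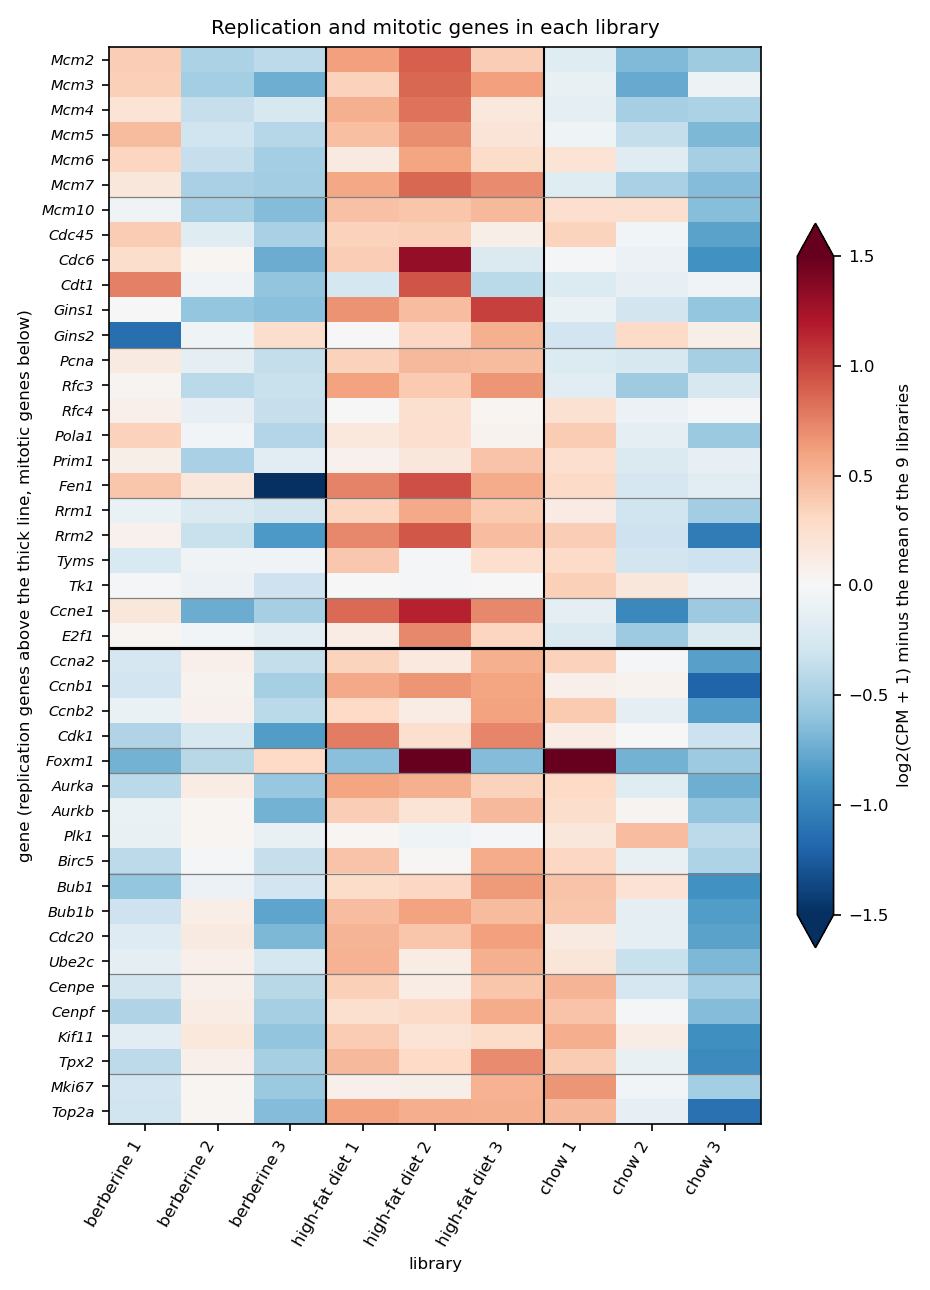
Heat map of the 43 genes (rows, in order of role; thick line: replication genes above, mitotic genes below) in the 9 libraries (columns, berberine, high-fat diet, chow); colour is log2(CPM + 1) minus the mean of the 9 libraries, cut at ±1.5. The high-fat diet columns are mostly red, chow replicate 1 is red and chow replicate 3 blue among the mitotic genes, and Fen1 and Foxm1 each have single libraries far from the rest.

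The 6 genes of the MCM helicase, the ring that unwinds DNA at the fork, all had log2 fold changes above 0 in high-fat diet against chow, and 4 of 6 rose, beside 15.1% of all tested genes. In berberine against high-fat diet all 6 were below 0 and 1 fell, Mcm7, a share of 16.7% beside 14.9% of all tested genes. Mcm7 stood at 79.9, 50.6 and 49.3 CPM in the berberine libraries, 107, 129.9 and 117 CPM in the high-fat diet libraries and 62.6, 50.5 and 45.0 CPM in the chow libraries. Its high-fat diet libraries were above all others, and it rose 2.24-fold against chow (log2 fold change 1.16 ± 0.21 (SE), adjusted p = 0.00466) and fell in berberine against high-fat diet (-0.98 ± 0.21, adjusted p = 0.00977). Mcm2 stood at 57.6, 31.6 and 33.5 CPM in the berberine libraries, 68.4, 83.0 and 57.5 CPM in the high-fat diet libraries and 38.9, 27.5 and 30.3 CPM in the chow libraries. It rose against chow (1.11 ± 0.26, adjusted p = 0.0132) but did not pass in berberine against high-fat diet (-0.77 ± 0.26, adjusted p = 0.053), where berberine replicate 1 overlapped the high-fat diet range.

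Mcm4 and Mcm5 showed the same layout. Mcm4 had 48.1, 32.4 and 34.8 CPM in the berberine libraries, 60.6, 73.6 and 46.2 CPM in the high-fat diet libraries and 37.3, 28.9 and 29.4 CPM in the chow libraries, with a log2 fold change of 0.92 ± 0.22 in high-fat diet against chow (adjusted p = 0.0137) and -0.65 ± 0.22 in berberine against high-fat diet (adjusted p = 0.0515). Mcm5 had 63.4, 36.5 and 33.5 CPM in the berberine libraries, 62.5, 73.8 and 51.9 CPM in the high-fat diet libraries and 43.3, 35.1 and 28.1 CPM in the chow libraries, and it rose against chow (0.82 ± 0.27, adjusted p = 0.0485), a call lost under 8 of 20 alternatives. In both genes berberine replicate 1 lay within the high-fat diet range. Mcm3 (0.93 ± 0.32, adjusted p = 0.0552) and Mcm6 (0.49 ± 0.26, adjusted p = 0.196) did not pass.

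Per length, the subunits were not level although the ring holds equal copies of them. Mcm7 averaged 11.8 ± 3.68 FPKM in berberine, 24.8 ± 2.71 FPKM in high-fat diet and 10.2 ± 1.98 FPKM in chow libraries (SD, n = 3 each), the highest of the 6 in each group. Mcm2 was the lowest of the 6 in each group, with 5.14 ± 1.94 FPKM in berberine, 9.35 ± 1.93 FPKM in high-fat diet and 3.98 ± 0.877 FPKM in chow libraries. Mcm3, Mcm4, Mcm5 and Mcm6 lay between them, with high-fat diet means from 11.7 ± 2.14 FPKM (Mcm6) to 15.7 ± 3.93 FPKM (Mcm4) whose SD ranges overlapped.

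Among the factors that load and activate the helicase, Gins1 was the member that rose, and Gins1 and Mcm10 fell in the berberine group. Gins1 had 7.05, 4.36 and 4.19 CPM in the berberine libraries, 11.8, 10.1 and 15.3 CPM in the high-fat diet libraries and 6.47, 5.64 and 4.35 CPM in the chow libraries. The high-fat diet libraries stood above all others, with a log2 fold change of 1.18 ± 0.29 against chow (adjusted p = 0.0159) and -1.25 ± 0.29 in berberine against high-fat diet (adjusted p = 0.0128). Mcm10, which helps activate the helicase, had 10.5, 7.50 and 6.62 CPM in the berberine libraries, 15.3, 15.0 and 15.7 CPM in the high-fat diet libraries and 13.3, 13.1 and 6.66 CPM in the chow libraries. Its high-fat diet values lay close together above the rest, and it fell in berberine against high-fat diet (-0.90 ± 0.30, adjusted p = 0.0483), a call lost under 9 of 20 alternatives, while 0.48 ± 0.29 against chow did not pass (adjusted p = 0.25). Cdc45, a part of the active helicase (0.40 ± 0.35 against chow and -0.35 ± 0.35 in berberine against high-fat diet), Cdc6, Cdt1 and Gins2 passed in neither comparison.

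The last 3 of these were uneven within groups. Cdt1, the licensing factor, had the largest spread of the replication genes by the median of the 3 group SDs of log2 CPM, although its chow libraries lay close together. It had 29.1, 16.1 and 10.8 CPM in the berberine libraries, 13.8, 33.3 and 12.4 CPM in the high-fat diet libraries and 14.5, 15.3 and 16.1 CPM in the chow libraries, so that 1 berberine and 1 high-fat diet library were about as high as each other and above the rest. Cdc6, its partner in licensing, reached 20.1 CPM in high-fat diet replicate 2, against 9.91 and 6.26 CPM in the other high-fat diet libraries. Gins2 stood at 19.2 CPM in berberine replicate 1, against 41.3 and 51.9 CPM in the other berberine libraries, although replicate 1 was the highest of the group for 22 of 24 replication genes.

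At the fork itself, Pcna and Rfc3 moved in both comparisons. Pcna, which tethers the polymerases to DNA, had 167, 137 and 118 CPM in the berberine libraries, 193, 213 and 212 CPM in the high-fat diet libraries and 132, 128 and 107 CPM in the chow libraries. It rose 1.69-fold in high-fat diet against chow (0.76 ± 0.15, adjusted p = 0.00619) and fell in berberine against high-fat diet (-0.55 ± 0.15, adjusted p = 0.0232). Rfc3 had 29.1, 21.0 and 22.1 CPM in the berberine libraries, 43.1, 37.2 and 45.0 CPM in the high-fat diet libraries and 24.8, 19.2 and 23.7 CPM in the chow libraries. As in Pcna, the high-fat diet libraries lay above all others while berberine and chow libraries overlapped, with 0.89 ± 0.17 against chow (adjusted p = 0.00578) and -0.80 ± 0.17 in berberine against high-fat diet (adjusted p = 0.00923), and both calls held under all 20 alternatives, as did both calls of Mcm7.

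The other fork genes did not pass. Here and further on, where a pair of log2 fold changes is given, the first is for high-fat diet against chow and the second for berberine against high-fat diet. Rfc4, another subunit of the clamp loader, had fold changes near 0 (0.05 ± 0.20 in high-fat diet against chow and -0.24 ± 0.20 in berberine against high-fat diet), as did Pola1, the catalytic subunit of polymerase alpha (0.23 ± 0.30 and -0.18 ± 0.30). Prim1, its primase partner, had 0.26 ± 0.22 and -0.43 ± 0.22. Fen1, the nuclease that trims Okazaki fragments, had 29.3, 24.6 and 2.49 CPM in the berberine libraries, 37.1, 43.4 and 32.5 CPM in the high-fat diet libraries and 26.9, 18.2 and 19.3 CPM in the chow libraries. Berberine replicate 3 was far below every other library, and with that library in the fit Fen1 had 0.81 ± 0.68 in high-fat diet against chow (adjusted p = 0.399). Without berberine replicate 3 the log2 fold change was the same to 2 decimals (0.81) but the adjusted p came to 0.0204.

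Of the genes that supply nucleotides, Rrm1, the large subunit of ribonucleotide reductase, moved in both comparisons. Rrm1 had 62.9, 57.5 and 55.3 CPM in the berberine libraries, 84.7, 100.2 and 88.5 CPM in the high-fat diet libraries and 73.7, 54.6 and 46.6 CPM in the chow libraries, with 0.64 ± 0.17 in high-fat diet against chow (adjusted p = 0.0212) and -0.64 ± 0.17 in berberine against high-fat diet (adjusted p = 0.0231), and by the median of the group SDs it was the least variable replication gene. Rrm2, the small subunit, had 32.1, 24.1 and 16.4 CPM in the berberine libraries, 51.3, 59.6 and 42.5 CPM in the high-fat diet libraries and 39.8, 24.4 and 14.3 CPM in the chow libraries. Its high-fat diet libraries were above all others too, but the wider spread left it short of the threshold (0.97 ± 0.37, adjusted p = 0.0802, and -1.08 ± 0.37, adjusted p = 0.0588). Tyms, which makes thymidylate, had 0.30 ± 0.20 and -0.35 ± 0.20. Tk1, the thymidine salvage kinase, was the single replication gene with a fold change below 0 in high-fat diet against chow (-0.17 ± 0.15).

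The G1/S regulators Ccne1 and E2f1 both rose in the high-fat diet group. Ccne1, cyclin E1, had 11.4, 5.58 and 6.81 CPM in the berberine libraries, 18.8, 23.5 and 17.1 CPM in the high-fat diet libraries and 9.02, 4.64 and 6.57 CPM in the chow libraries. It had the largest fold change of the 43 genes in both comparisons, 1.55 ± 0.34 against chow (adjusted p = 0.0096) and -1.32 ± 0.34 in berberine against high-fat diet (adjusted p = 0.0188). E2f1, the activator of the replication genes and itself an E2F target, had 10.9, 10.3 and 9.39 CPM in the berberine libraries, 11.6, 18.2 and 13.6 CPM in the high-fat diet libraries and 9.05, 6.96 and 9.03 CPM in the chow libraries. It rose 1.73-fold against chow (0.79 ± 0.22, adjusted p = 0.0251), and -0.50 ± 0.22 in berberine against high-fat diet did not pass (adjusted p = 0.114).

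Some of these calls ended when 1 library was left out, while the log2 fold changes kept their direction. The falls in berberine against high-fat diet of Pcna (-0.69 to -0.45 over the 20 alternatives), Rrm1 (-0.75 to -0.56) and Ccne1 (-1.68 to -1.12) each ended without berberine replicate 2, without berberine replicate 3 and without high-fat diet replicate 2, with adjusted p of at most 0.0755, and that of Pcna also without high-fat diet replicate 3. The fall of Gins1 (-1.54 to -1.09) ended without berberine replicate 2, at an adjusted p of 0.0526. The rises of Rrm1 (0.51 to 0.85) and E2f1 (0.59 to 1.06) ended without high-fat diet replicate 2 and without chow replicate 2, that of E2f1 also without chow replicate 1, with adjusted p of at most 0.0837.

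**Figure D3:**
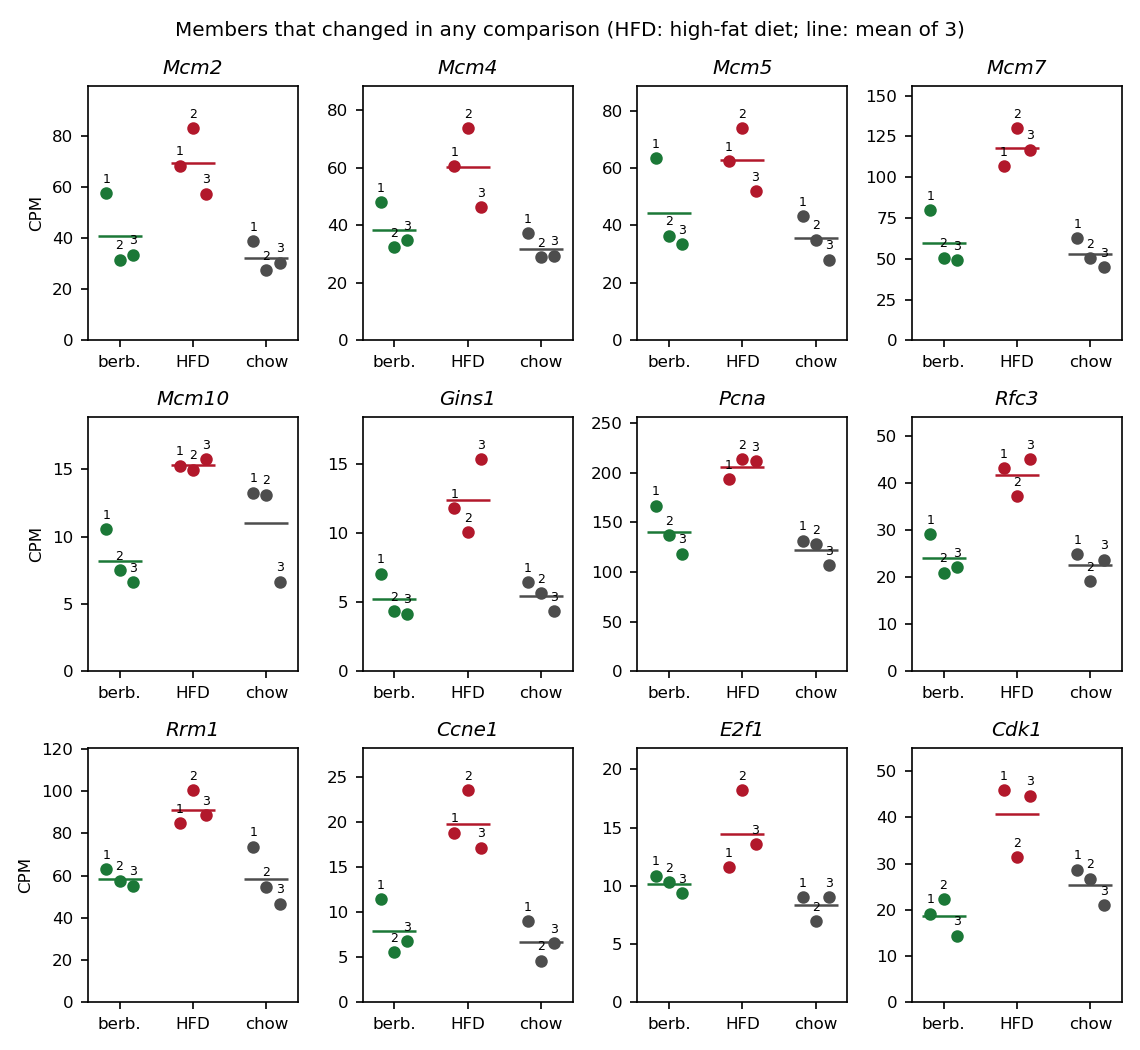
CPM (y axes, from 0) of the 12 genes that changed in any comparison, by group (berb.: berberine; HFD: high-fat diet); points are libraries with their replicate number and lines are means of 3. In Mcm7, Gins1, Pcna, Rfc3, Rrm1 and Ccne1 the high-fat diet points lie above all others, while in Mcm2, Mcm4 and Mcm5 berberine replicate 1 lies within their range.

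Among the mitotic cyclins and their kinase, Cdk1 was the gene that changed. Cdk1 had 19.2, 22.3 and 14.4 CPM in the berberine libraries, 45.8, 31.4 and 44.6 CPM in the high-fat diet libraries and 28.6, 26.7 and 21.0 CPM in the chow libraries. Every berberine library was below every other library except chow replicate 3, which was below berberine replicate 2, and Cdk1 fell in berberine against high-fat diet (-1.13 ± 0.22, adjusted p = 0.00625), which held under all 20 alternatives. It also rose in the high-fat diet group (0.67 ± 0.22, adjusted p = 0.0451), but this call ended under 9 of 20 alternatives, among them leaving out any of the 3 chow libraries. Ccnb1, cyclin B1, had 17.8, 22.8 and 15.3 CPM in the berberine libraries, 33.3, 35.3 and 33.8 CPM in the high-fat diet libraries and 23.2, 22.9 and 9.0 CPM in the chow libraries. The high-fat diet libraries lay together above all others, yet neither 0.89 ± 0.33 against chow (adjusted p = 0.0715) nor -0.87 ± 0.33 in berberine against high-fat diet (adjusted p = 0.0786) passed. Ccna2, cyclin A2, had 0.44 ± 0.28 and -0.52 ± 0.28, and Ccnb2, cyclin B2, had 0.47 ± 0.30 and -0.50 ± 0.30.

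The mitotic kinases and their partner Birc5 passed in neither comparison. Aurka, of the spindle poles, had 0.67 ± 0.29 and -0.78 ± 0.29, and Aurkb, of the chromosomal passenger complex, had 0.43 ± 0.27 and -0.61 ± 0.27. Birc5, survivin, of the same complex, had 0.41 ± 0.23 and -0.61 ± 0.23. Plk1, polo-like kinase 1, had 67.4, 74.7 and 67.6 CPM in the berberine libraries, 74.8, 69.6 and 72.2 CPM in the high-fat diet libraries and 82.5, 101 and 55.6 CPM in the chow libraries. By the median of the group SDs it was the least variable mitotic gene, although its chow libraries were spread widely, and it had the highest level per length (29.7 FPKM over the 9 libraries), and its fold changes were -0.14 ± 0.19 and -0.05 ± 0.19, with the first at 0.02 under limma on log2(FPKM + 1). The entry Gm44985 lies on the opposite strand of Plk1 and had between 29.0 and 134 CPM. The library protocol keeps the strand, but whether counting used it is not stated, so reads of the pair may not have been kept apart.

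Genes of the spindle checkpoint and of the anaphase-promoting complex had fold changes above 0 in high-fat diet and below 0 in berberine, and none of the 4 passed. Cdc20, the activator of that complex, had 35.1, 44.2 and 24.9 CPM in the berberine libraries, 57.4, 53.8 and 62.0 CPM in the high-fat diet libraries and 44.1, 36.6 and 22.7 CPM in the chow libraries. Its high-fat diet libraries were the highest, with 0.74 ± 0.27 against chow (adjusted p = 0.0644) and -0.73 ± 0.27 in berberine against high-fat diet (adjusted p = 0.0701). Ube2c had 0.64 ± 0.23 and -0.51 ± 0.23, Bub1b had 0.63 ± 0.33 and -0.83 ± 0.33, and Bub1 had 0.43 ± 0.35 and -0.78 ± 0.36. The last 2 encode checkpoint kinases of the kinetochore.

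Of the kinetochore and spindle genes, Cenpe, Cenpf, Kif11 and Tpx2 all had berberine libraries below all high-fat diet libraries, which held for 25.6% of all tested genes. Their log2 fold changes ran from -0.77 ± 0.32 (Tpx2) to -0.48 ± 0.35 (Kif11). None passed, and against chow the high-fat diet libraries overlapped in all 4. Top2a, the topoisomerase that untangles chromosomes, had 76.9, 97.1 and 60.3 CPM in the berberine libraries, 145, 139 and 138 CPM in the high-fat diet libraries and 134, 87.3 and 43.1 CPM in the chow libraries. Its high-fat diet libraries were the highest, but chow replicate 1 came next to them (0.67 ± 0.36, adjusted p = 0.183). Mki67, the gene of the Ki-67 antigen used to stain dividing cells, had 124, 155 and 103 CPM in the berberine libraries, 160.0, 162 and 219 CPM in the high-fat diet libraries and 241, 148 and 107 CPM in the chow libraries. The highest library was chow replicate 1, and neither 0.13 ± 0.30 in high-fat diet against chow (adjusted p = 0.78) nor -0.50 ± 0.30 in berberine against high-fat diet (adjusted p = 0.233) passed.

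Foxm1, the transcription factor of the mitotic program, behaved unlike the others. It had 4.71, 5.97 and 10.4 CPM in the berberine libraries, 5.03, 27.4 and 4.93 CPM in the high-fat diet libraries and 30.0, 4.71 and 5.39 CPM in the chow libraries. High-fat diet replicate 2 and chow replicate 1 were at 27.4 CPM or more and the 7 other libraries at 10.4 CPM or less, and Foxm1 had the largest median of the group SDs among the mitotic genes, with log2 fold changes of -0.10 ± 0.89 and -0.82 ± 0.90. The first was 0.01 with library totals in place of TMM. The mitotic score of high-fat diet replicate 2 (0.46) did not stand out from those of the other high-fat diet libraries (0.48 and 0.57). That of chow replicate 1 (0.54) was the highest of the chow libraries (0.05 and -0.60 in the others).

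**Figure D4:**
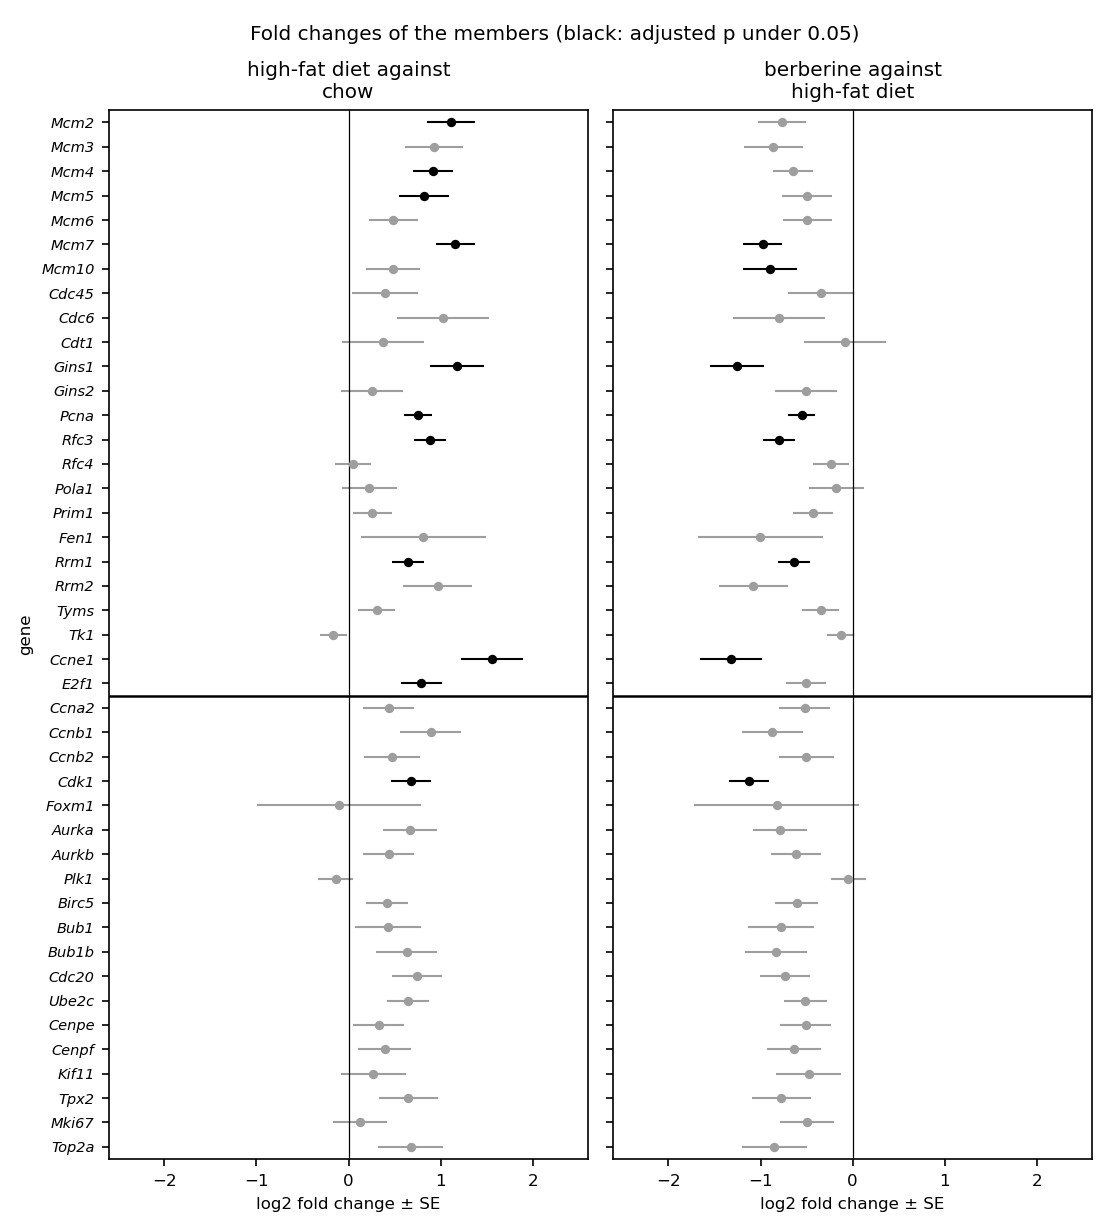
Log2 fold change ± SE of the 43 genes (rows, replication genes above the line, mitotic genes below) for high-fat diet against chow (left) and berberine against high-fat diet (right); black points passed an adjusted p of 0.05 and grey points did not. In the left panel 23 of 24 replication and 17 of 19 mitotic genes lie above 0, and in the right panel all 43 lie below 0.

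Set against each other, the lists did not differ by more than the spread between libraries. The replication score minus the mitotic score was 0.53, -0.20 and 0.04 in the berberine libraries, 0.10, 0.35 and -0.01 in the high-fat diet libraries and -0.28, -0.11 and 0.39 in the chow libraries. The groups overlapped, with means of 0.13 ± 0.37 in berberine, 0.14 ± 0.19 in high-fat diet and 0.00 ± 0.35 in chow libraries (SD, n = 3 each). The mitotic genes had the wider spread in chow. The median SD over genes of log2 CPM was 0.39 for the replication and 0.30 for the mitotic genes in berberine libraries, 0.22 and 0.17 in high-fat diet libraries and 0.29 and 0.59 in chow libraries, beside 0.18 to 0.24 over all tested genes.

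Within groups, the same libraries stood at the ends for most genes. Chow replicate 1 was the highest chow library for 18 of 19 mitotic genes and chow replicate 3 the lowest for 18 of 19, and these are the libraries with the most squamous and striated muscle RNA. Without berberine replicate 3, 2 mitotic genes rose in high-fat diet against chow. No mitotic gene did without chow replicate 2, high-fat diet replicate 1, high-fat diet replicate 3 or berberine replicate 1. In these fits 1713 to 2080 of all tested genes rose, against 2194 with all libraries. Without chow replicate 1, 6 mitotic genes rose in high-fat diet against chow and 3 fell in berberine against high-fat diet. Of all tested genes, 1712 rose and 2013 fell there, where 2158 fell with all libraries. Without chow replicate 3, no mitotic gene rose and 10 fell in the same comparisons, beside 2085 and 2328 of all tested genes. Without both, which leaves 1 chow library and takes the spread from berberine and high-fat diet libraries, 4 replication and 0 mitotic genes rose in high-fat diet against chow, and 8 replication and 10 mitotic genes fell in berberine against high-fat diet. In the berberine group, replicate 1 was the highest for 22 of 24 replication genes, and replicate 2 was the highest for 18 of 19 mitotic genes. Berberine replicate 1 also had the most B cell marker RNA, and the part of those cells in its replication genes was not tested. Without it, 12 replication genes fell in berberine against high-fat diet. The number was 2 without berberine replicate 2, and 3 without berberine replicate 3 or without high-fat diet replicate 2. Of all tested genes, 1709, 1361, 1497 and 1653 fell in these fits, in that order.

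Per length and over the 9 libraries, the replication genes with the highest levels were Pcna (58.2 FPKM) and Mcm7 (15.6 FPKM), and those with the lowest were Pola1 (1.29 FPKM) and Mcm10 (1.33 FPKM). The mitotic genes with the highest levels were Plk1 (29.7 FPKM) and Cdc20 (20.3 FPKM), and those with the lowest were Foxm1 (1.70 FPKM) and Cenpf (1.66 FPKM). Both lists thus covered a wide range of abundance. Of the 43 genes, 10 overlap another entry with a mean of at least 1 CPM, in each case on the opposite strand. They are Mcm7, Cdc45, Gins2, Tk1, Rfc4, Fen1, Ccna2, Plk1, Ube2c and Cdc20, and their values carry the limit given for Plk1. The mean of the other entry was above that of the gene for Rfc4 (ratio 26.2), Cdc45 (3.47), Fen1 (2.57), Gins2 (1.70), Cdc20 (1.55) and Mcm7 (1.25).

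Between berberine and chow none of the 43 genes changed. In this comparison 0.0138% of tested genes were called (2 genes, both higher), with 1576 genes at an unadjusted p under 0.05 and 179 genes higher and 205 lower by DESeq2. None of the 43 had an unadjusted p under 0.05, and DESeq2 called none. The fold change was above 0 for 14 of 24 replication and 3 of 19 mitotic genes (49.7% of tested genes) and below 0 for 10 and 16 of them (50.2%). The median log2 fold change was 0.05 for the replication genes and -0.18 for the mitotic genes, beside 0.00 over all tested genes. The smallest adjusted p among the replication genes was that of Tk1 (-0.30 ± 0.15, adjusted p = 0.505) and among the mitotic genes that of Cdk1 (-0.45 ± 0.22, adjusted p = 0.492). In E2f1 every berberine library exceeded every chow library (0.29 ± 0.22, adjusted p = 0.674), which held for 8.73% of tested genes, and no member was lower without overlap, which held for 9.37%. A p above the threshold does not show that the groups were alike.

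Of 37 other genes of the replication machinery that were tested, 7 rose in high-fat diet against chow and none fell, and in berberine against high-fat diet 12 fell and none rose. The risen are 18.9% of the list, near the 15.1% of all tested genes, and the fallen 32.4%, beside 14.9%. The fold change was above 0 for 33 of 37 in the first comparison (50.1% of tested genes) and below 0 for 32 of 37 in the second (50.4%). In those directions the groups did not overlap for 17 genes in the first (23.2% of tested genes) and 24 in the second (25.6%). Orc1 and Orc2, of the origin recognition complex, rose by 1.47 ± 0.39 (adjusted p = 0.0211) and 0.72 ± 0.16 (adjusted p = 0.0117) on the log2 scale. Chaf1b, of the chromatin assembly factor that packs new DNA, had 13.5, 5.73 and 6.87 CPM in the berberine libraries, 23.0, 26.0 and 19.7 CPM in the high-fat diet libraries and 13.7, 8.47 and 9.96 CPM in the chow libraries, and it rose in high-fat diet against chow (1.09 ± 0.34, adjusted p = 0.038) and fell in berberine against high-fat diet (-1.40 ± 0.34, adjusted p = 0.0157). The rise was lost under 6 and the fall under 2 of 20 alternatives. Rpa2, of the single-strand binding complex, rose by 0.55 ± 0.17 (adjusted p = 0.0356), a call lost under 9 of 20 alternatives. Rfc1, the large clamp loader subunit (-0.59 ± 0.12, adjusted p = 0.00767), Tipin, of the fork protection complex (-1.06 ± 0.23, adjusted p = 0.0105), and Orc6 (-0.66 ± 0.17, adjusted p = 0.0215) fell in berberine against high-fat diet.

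Of 40 other mitotic genes, 4 rose in high-fat diet against chow and 6 fell in berberine against high-fat diet, with none in the opposite direction. These are 10.0% and 15.0% of the list, below the 15.1% of all tested genes that rose and close to the 14.9% that fell. The fold change was above 0 for 39 of 40 in the first comparison (50.1% of tested genes) and below 0 for 37 of 40 in the second (50.4%). In those directions the groups did not overlap for 10 genes in the first (23.2% of tested genes) and 26 in the second (25.6%). Cks1b, a small subunit of cyclin-dependent kinases, had 15.5, 15.3 and 13.0 CPM in the berberine libraries, 47.2, 35.2 and 40.6 CPM in the high-fat diet libraries and 19.9, 12.3 and 12.2 CPM in the chow libraries. The high-fat diet libraries were far above all others, with 1.47 ± 0.22 against chow (adjusted p = 0.00202) and -1.49 ± 0.22 in berberine against high-fat diet (adjusted p = 0.0019). Mad2l1, the checkpoint protein MAD2, had 29.8, 30.8 and 25.1 CPM in the berberine libraries, 75.7, 52.8 and 67.1 CPM in the high-fat diet libraries and 37.6, 27.9 and 21.1 CPM in the chow libraries, and here too the high-fat diet libraries lay above all others (1.18 ± 0.23, adjusted p = 0.00556, and -1.19 ± 0.23, adjusted p = 0.00529). Bub3, another checkpoint protein, rose by 0.60 ± 0.11 (adjusted p = 0.00425) and had -0.47 ± 0.11 in berberine against high-fat diet (adjusted p = 0.012). Kif23, a motor of cytokinesis, rose by 0.69 ± 0.20 (adjusted p = 0.0322), a call lost under 7 of 20 alternatives, and Tacc3, a spindle protein, fell in berberine against high-fat diet with -0.83 ± 0.19 (adjusted p = 0.0108).

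Of 27 tested G1 cyclins, kinases, MYC and E2F family genes and their repressors, 8 rose and 3 fell in high-fat diet against chow, and 2 rose and 7 fell in berberine against high-fat diet. In the first comparison 29.6% of the list rose and 11.1% fell, beside 15.1% and 16.6% of all tested genes, and 16 of 27 did not pass. In the second 7.41% rose and 25.9% fell, beside 15.7% and 14.9%. Ccnd1, cyclin D1, had 84.3, 61.4 and 56.1 CPM in the berberine libraries, 233, 324 and 249 CPM in the high-fat diet libraries and 88.7, 92.2 and 81.4 CPM in the chow libraries, with 1.62 ± 0.19 against chow (adjusted p = 0.000631) and -2.00 ± 0.19 in berberine against high-fat diet (adjusted p = 0.000301). Its partner Cdk4 had 98.2, 64.9 and 80.8 CPM in the berberine libraries, 247, 196 and 236 CPM in the high-fat diet libraries and 67.8, 70.1 and 88.8 CPM in the chow libraries, with 1.58 ± 0.18 (adjusted p = 0.000643) and -1.48 ± 0.18 (adjusted p = 0.000861). In both genes the high-fat diet libraries stood far above all others.

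The MYC genes promote growth and entry into S phase. Myc had 40.4, 21.6 and 30.6 CPM in the berberine libraries, 87.3, 105 and 109 CPM in the high-fat diet libraries and 24.7, 23.2 and 36.6 CPM in the chow libraries, with 1.83 ± 0.26 in high-fat diet against chow (adjusted p = 0.0015) and -1.70 ± 0.26 in berberine against high-fat diet (adjusted p = 0.00207). Mycn had 3.60, 4.90 and 3.53 CPM in the berberine libraries, 10.8, 14.0 and 16.1 CPM in the high-fat diet libraries and 2.71, 3.71 and 3.31 CPM in the chow libraries, with 2.07 ± 0.26 (adjusted p = 0.000817) and -1.76 ± 0.25 (adjusted p = 0.00165). In both genes the high-fat diet libraries lay above all others, while berberine and chow libraries overlapped. The 3 genes that fell in high-fat diet against chow were those of the retinoblastoma family, Rb1 (-0.84 ± 0.13, adjusted p = 0.00218), Rbl1 (-0.53 ± 0.14, adjusted p = 0.0204) and Rbl2 (-0.92 ± 0.15, adjusted p = 0.00291), which hold E2F in check. Rbl1 and Rbl2 were named after their values had been seen. Of these, Rbl2 rose in berberine against high-fat diet (0.79 ± 0.15, adjusted p = 0.00569), while Rb1 (0.34 ± 0.13, adjusted p = 0.0757) and Rbl1 (0.29 ± 0.14, adjusted p = 0.143) did not pass.

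Inhibitors of cyclin-dependent kinases and p53 targets moved in both directions, with 3 of 14 risen and 4 fallen in high-fat diet against chow, and 3 risen and 3 fallen in berberine against high-fat diet. These are 21.4% and 28.6% of the list, beside 15.1% and 16.6% of all tested genes, and 21.4% each, beside 15.7% and 14.9%. With 14 genes these shares are not far from those of all genes. Cdkn1b, p27, had 82.0, 90.8 and 123 CPM in the berberine libraries, 48.5, 48.2 and 58.4 CPM in the high-fat diet libraries and 111, 139 and 82.2 CPM in the chow libraries, and fell in high-fat diet (-1.10 ± 0.22, adjusted p = 0.00678). Cdkn1c, p57, had 6.94, 7.97 and 6.76 CPM in the berberine libraries, 146, 79.2 and 79.2 CPM in the high-fat diet libraries and 4.70, 14.0 and 6.92 CPM in the chow libraries, and rose (3.57 ± 0.43, adjusted p = 0.000778), while it fell in berberine against high-fat diet (-3.81 ± 0.44, adjusted p = 0.000647). In high-fat diet against chow these inhibitors of the same family went opposite ways. Trp53, the gene of p53, had 85.9, 74.4 and 55.9 CPM in the berberine libraries, 160.3, 142 and 130.5 CPM in the high-fat diet libraries and 66.7, 65.4 and 70.7 CPM in the chow libraries, with 1.09 ± 0.16 (adjusted p = 0.00193) and -1.0 ± 0.16 in berberine against high-fat diet (adjusted p = 0.00282). Cdkn2a, which encodes p16 and ARF, had 0, 0 and 0.313 CPM in the berberine libraries, 29.5, 13.4 and 9.66 CPM in the high-fat diet libraries and 0.343, 0.641 and 0.399 CPM in the chow libraries, so it was at or near 0 outside the high-fat diet group. It rose in high-fat diet against chow (5.25 ± 1.12, adjusted p = 0.00913) and fell in berberine against high-fat diet (-7.35 ± 1.27, adjusted p = 0.00376). With values this near 0 the size of the fall is unsure, and it ran from -13.1 to -3.66 over the 20 alternatives. Btg2, an antiproliferative p53 target, rose in berberine against high-fat diet (0.60 ± 0.13, adjusted p = 0.00987).

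Among genes of the replication checkpoint and DNA repair, Chek1, the checkpoint kinase, rose in high-fat diet by 0.93 ± 0.31 (adjusted p = 0.0479), a call lost under 10 of 20 alternatives. Brca1 (0.63 ± 0.30, adjusted p = 0.14) and Msh6 (0.34 ± 0.16, adjusted p = 0.145), both repair genes, did not pass. In berberine against high-fat diet Atrip, a partner of the checkpoint kinase ATR, lay just outside the threshold (-0.65 ± 0.21, adjusted p = 0.0501).

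Between berberine and chow, edgeR called none of the tested genes of these 5 further lists. DESeq2 called Ccnd3 higher and Orc3 and Rb1 lower, where it called 179 higher and 205 lower over all tested genes. At an unadjusted p under 0.05 in edgeR there were 2 of 37 other replication genes, 3 of 27 G1 regulators and 1 of 13 checkpoint or repair genes. These shares are near or below the 10.9% of all tested genes. The smallest adjusted p was that of Ccnd3, cyclin D3, with 98.5, 94.1 and 40.2 CPM in the berberine libraries, 83.0, 57.2 and 64.6 CPM in the high-fat diet libraries and 33.0, 28.8 and 26.1 CPM in the chow libraries (1.40 ± 0.32, adjusted p = 0.255). Next came Orc3, of the origin recognition complex (-0.50 ± 0.13, adjusted p = 0.299), and Rb1 (-0.50 ± 0.13, adjusted p = 0.299).

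**Figure D5:**
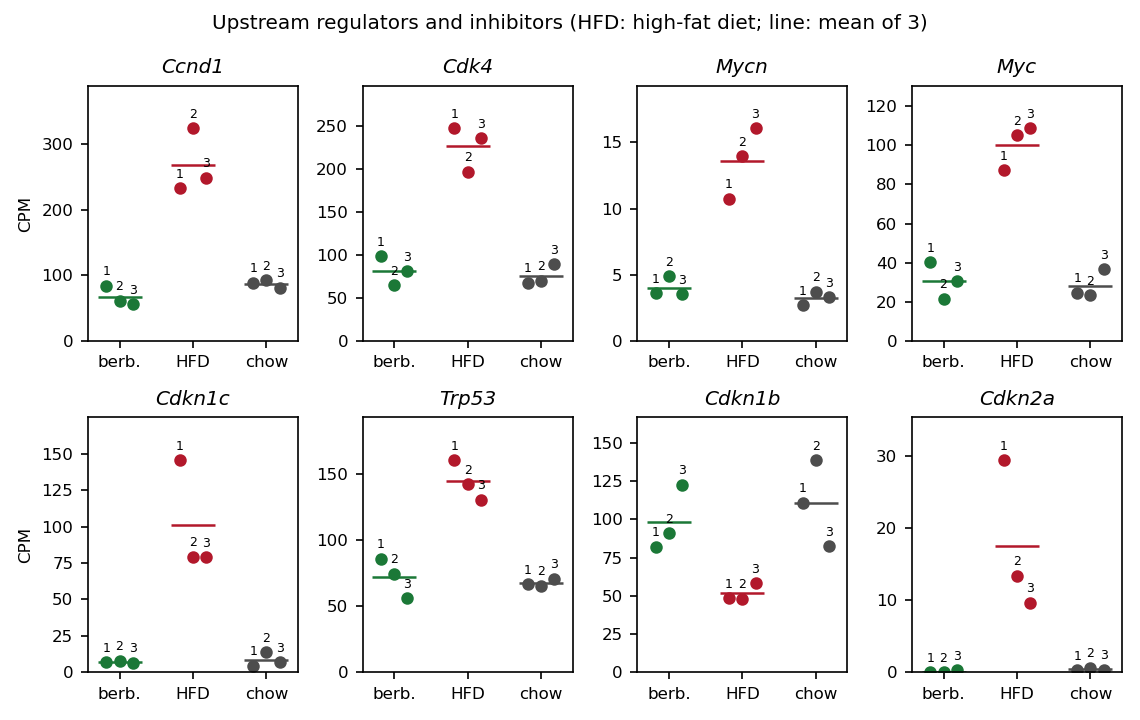
CPM (y axes, from 0) of 8 upstream regulators and inhibitors by group (berb.: berberine; HFD: high-fat diet); points are libraries with their replicate number and lines are means of 3. Ccnd1, Cdk4, Mycn, Myc, Cdkn1c, Trp53 and Cdkn2a are highest in the high-fat diet libraries and Cdkn1b is lowest there.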

How the data were processed

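RNA was measured in 9 libraries of mouse colonic tissue, 3 per group, poly(A)-selected and strand-marking per the labels' protocols, with molecular identifiers in the adapters. The submitters' processing notes name HISAT2 2.0.4, StringTie 1.3.4d, cutadapt 1.9, UMI-tools, edgeR, DESeq2 and the GRCm38 mouse build. They do not give the roles or order of these tools. The deposited table holds the authors' estimated counts and FPKM values for 55401 entries, and low counts pile up at multiples of 4. An FPKM of 0.0001 was deposited wherever the count was 0.

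Counts were rounded and tested with edgeR 4.0.16 (quasi-likelihood, TMM scaling, R 4.3.3) in 1 fit over all 9 libraries, for the 14506 entries with a mean of at least 1 FPKM. P-values were adjusted by Benjamini-Hochberg over all of them, with calls at 0.05, and an SE is the log2 fold change divided by the square root of the test's F. Library totals were 51961764 to 69007117 counts. DESeq2 1.42.0, limma 3.58.1 on log2(FPKM + 1), other scalings and filters, a replicate block and leaving out libraries were alternatives. FPKM was used to compare levels between genes.

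The members and lists were chosen with earlier results of these data known. Values per library are given for members called in any comparison and for those of highest, lowest, most and least variable level. Those of Pola1 and Cenpf, which have low levels, are left out. From each further list, statistics are given for the 4 genes of smallest p per comparison, where those that did not pass are mostly given as counts. A result of the checkpoint and repair list is not reported here. Fen1, Rrm2, Cdc6, Gins2, Ccnb1, Top2a and Mki67 were added after their values were seen. Upstream windows are from RefSeq. The edgeR step was tested on simulated data with the levels and spread of these libraries. It recovered 1.49% of 67 genes changed 1.5-fold, 10.4% of 67 changed 2-fold and 69.7% of 66 changed 4-fold, with 1 false call. Far fewer genes were changed there than were called here, so these shares do not carry over directly to these data.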

Additional observations from a re-analysis of the deposited data

How the results depend on the processing

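Of 24 replication genes, 10 rose in high-fat diet against chow, and the number was 7 to 12 when 1 library was left out and 4 without chow replicates 1 and 3, an alternative added after seeing the data that leaves 1 chow library and takes its spread from the other groups. For the fall of 7 in berberine against high-fat diet it was 2 to 12 when 1 library was left out, 11 under DESeq2 and 11 under limma on log2(FPKM + 1) or on log2(FPKM + 0.1). Of 19 mitotic genes 1 rose in high-fat diet against chow, with 0 to 6 when 1 library was left out, 4 under DESeq2, 4 with library totals alone, 4 under limma on either scale, and 0 both with only the 2 groups compared and without chow replicates 1 and 3. For the 1 that fell in berberine against high-fat diet it was 1 to 10 when 1 library was left out, 6 under DESeq2, 4 with library totals alone, 5 and 4 under limma on log2(FPKM + 1) and log2(FPKM + 0.1), and 10 both with only the 2 groups compared and without chow replicates 1 and 3. The cause was not tested. Calls over all tested genes moved as well. In high-fat diet against chow 2194 rose, with 2626 under DESeq2, 2805 with library totals alone and 1771 with only the 2 groups compared. Under limma on the 2 scales 2956 and 2902 rose, and 1712 to 2085 when 1 library was left out. In berberine against high-fat diet 2158 fell, and under the same alternatives 2693, 2682, 2217, 2703 and 2667, and 1361 to 2328. No gene of either list was called in berberine against chow under any of 20 alternatives. No named call reversed among those followed over the alternatives, which leave out the calls of Rb1, Rbl1 and Rbl2. The replication minus mitotic score differed by 0.14 between high-fat diet and chow (0.01 to 0.34 when 1 library was left out). It differed by -0.02 between berberine and high-fat diet (-0.22 to 0.14) and by 0.13 between berberine and chow (-0.08 to 0.32). With all libraries, these differences were smaller than the SD of that score within each group (0.19 to 0.37). In every alternative the difference moved from that value by less than the SD of libraries, pooled over the groups compared. That SD was larger than the differences, so this rule also passes a difference that vanishes or changes sign. With the median over genes in place of the mean, the difference was 0.0002 for high-fat diet against chow. It was then 0.20 for berberine against high-fat diet and 0.20 for berberine against chow.

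Same-numbered libraries did not deviate together (correlations of -0.10 to 0.16), so the numbers were not taken as pairs. With a replicate block, 11 replication and 2 mitotic genes rose in high-fat diet against chow, and 10 and 1 fell in berberine against high-fat diet. In that fit 2067 of all tested genes rose in the first comparison and 2032 fell in the second. Over all tested genes, 2 were called in berberine against chow by edgeR and 179 higher and 205 lower by DESeq2. Without berberine replicate 2, 1575 rose and 1361 fell in berberine against high-fat diet, against 2275 and 2158 with it. Without chow replicates 1 and 3, 24 were higher and 46 lower in berberine against chow, and 1252 rose and 1473 fell in high-fat diet against chow. Under limma on log2(FPKM + 1) the split was 2956 higher and 1897 lower in high-fat diet against chow, and 1862 higher and 2703 lower in berberine against high-fat diet. With 3 libraries a group, a gene that did not pass may still differ.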
